A study of Mus musculus with 9 samples.

Results

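The rows described here carry the symbols of small nucleolar RNAs and small Cajal body RNAs, and they were taken as every gene symbol that begins with Snora, Snord or Scarna. They number 114 of the 23279 gene rows, with 69 Snord rows (box C/D class), 36 Snora rows (box H/ACA class) and 9 Scarna rows (Cajal body class). The 9 libraries came from mouse bone marrow cultures labelled pro-B, with 3 Ts1Rhr, 3 HMGN1_OE and 3 WT libraries. Ts1Rhr mice carry an extra copy of the chromosome 16 interval that runs between Cbr1 and Fam3b, and their strain was an FVB x C57BL/6 F1. The mice of the HMGN1_OE group overexpressed Hmgn1, a nucleosome-binding protein gene of that interval, on C57BL/6; what promoter drove it is not given in the sources used. The WT mice were littermates of unstated strain, so strain and genotype cannot be told apart. All mice were 6 to 8 weeks old, all marrow was grown for 7 days with interleukin-7 in methylcellulose, and colonies were pooled across cultures before RNA was taken from equal numbers of cells. ERCC spike-in RNA, 1 µl at a dilution of 1 in 1000, went into every sample before polyA RNA was made into a library.

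Small nucleolar RNAs guide chemical marks onto other RNAs. Box C/D RNAs bring fibrillarin to ribosomal RNA for 2′-O-methylation, box H/ACA RNAs bring dyskerin for pseudouridylation, and Cajal body RNAs guide the same marks onto spliceosomal RNAs. In mammals most of them are cut from introns of host genes, many of which encode ribosomal proteins, and most end without a poly(A) tail, so a polyA library is not made to collect them.

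The sequences of 5 rows on which the results turn are shown with the short boxes that mark their classes. They come from the GENCODE M21 transcripts of build GRCm38, not the mm9 build of the deposited tables, and capitals mark TGATGA (the commonest spelling of the C box) within 20 bases of the 5′ end, CTGA (the D box) within 20 bases of the 3′ end, or ACA within 10 bases of the 3′ end. Snord17 (chr2:144265979-144266216, minus strand, within Snx5), Snord15a (chr7:99482785-99482932, minus strand, within Rps3), Snord83b (chr15:80078498-80078591, minus strand, within Rpl3) and Snord22 (chr19:8725866-8725991, plus strand, within Snhg1) are box C/D RNAs. Snora3 (chr7:109520120-109520251, plus strand, within Rpl27a) is a box H/ACA RNA.
Snord17: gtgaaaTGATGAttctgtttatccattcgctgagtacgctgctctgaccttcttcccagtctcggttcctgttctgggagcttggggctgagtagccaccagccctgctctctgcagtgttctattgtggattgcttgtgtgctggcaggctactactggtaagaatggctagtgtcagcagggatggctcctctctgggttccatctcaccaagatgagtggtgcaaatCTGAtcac
Snord15a: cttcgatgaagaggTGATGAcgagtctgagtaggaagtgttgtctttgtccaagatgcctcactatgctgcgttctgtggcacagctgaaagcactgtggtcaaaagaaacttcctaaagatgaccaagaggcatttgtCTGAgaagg
Snord83b: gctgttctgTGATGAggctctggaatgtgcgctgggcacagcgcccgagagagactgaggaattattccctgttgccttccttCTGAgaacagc
Snord22: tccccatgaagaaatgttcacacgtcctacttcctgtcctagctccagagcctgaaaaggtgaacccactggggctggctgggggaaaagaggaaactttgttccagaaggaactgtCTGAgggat
Snora3: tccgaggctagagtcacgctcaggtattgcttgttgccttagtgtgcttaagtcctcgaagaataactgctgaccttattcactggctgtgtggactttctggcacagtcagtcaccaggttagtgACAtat
Searched on the RNA strand only, TGATGA and CTGA stood in these windows in 43 and 66 of the 67 C/D members with a sequence, and in 0 and 5 of the 36 H/ACA members. ACA stood in its window in 34 of the 36 H/ACA members and in 8 of the 67 C/D members. Over all 1507 GENCODE small nucleolar RNA transcripts the shares were 21.8% for TGATGA, 56.4% for CTGA and 49.4% for ACA. Snord22 lacked TGATGA in its window, and nothing follows from that beyond those letters.

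Most of these rows were listed at 0 everywhere. In the raw FPKM table (fragments per kilobase of transcript, scaled to library size, before the spike-in step), 76 of the 114 rows (66.7%) were listed at 0 in all 9 libraries, against 30.9% of all gene rows. Another row, Snora24, was listed at 0 or 0.01 throughout. The other 37 rows exceeded 0.01 somewhere, and 12 of them did so in 1 library only. Just 2 rows, Snora3 and Snord22, exceeded 0.01 in all 9 libraries, a share of 1.75% against 50.7% of all gene rows.

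Per library, 8 to 16 members were above 0.01 raw FPKM. The Ts1Rhr libraries had 14, 16 and 8 such rows, the HMGN1_OE libraries 9, 13 and 14, and the WT libraries 14, 13 and 12. The group ranges overlapped fully, with the WT range inside both others. The members listed at 0 numbered 99, 97 and 106 in the Ts1Rhr libraries, 105, 101 and 99 in the HMGN1_OE libraries, and 99, 99 and 101 in the WT libraries. Entries of exactly 0.01, which can be failed estimates, occurred in 2 members, Snora24 and Snora26, against 283 rows of the whole table. Snora24 (within Snhg8) stood at 0.01 in Ts1Rhr replicate 1 and in WT replicates 1 and 2. Snora26 (within Dancr) stood at 291, 0.01 and 27.5 FPKM in the Ts1Rhr libraries, at 173, 0 and 0.01 in the HMGN1_OE libraries, and at 0, 0.01 and 0.01 in the WT libraries.

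The rows seen in 1 library were often not those seen in the next. Over the 9 pairs of libraries within a group, 3 to 8 rows were shared (median 6). Over the 27 pairs between groups, 2 to 9 were shared (median 5). As a share of a library's own rows this was 18.8% to 88.9% within groups and 16.7% to 69.2% between groups. Of the 37 rows, 11 appeared in some library of every group, 14 in 2 groups and 12 in 1 group. The sharing between pairs and between groups was not computed over all gene rows. Of the rows above 0.01 somewhere, 32.4% of the members were so in 1 library only, against 6.26% of all gene rows. In the Ts1Rhr libraries 27 rows appeared, 19 of them in 1 library. In the HMGN1_OE libraries 23 rows appeared, 14 of them in 1 library, and in the WT libraries 23 rows, 13 of them in 1 library.

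**Figure D1:**
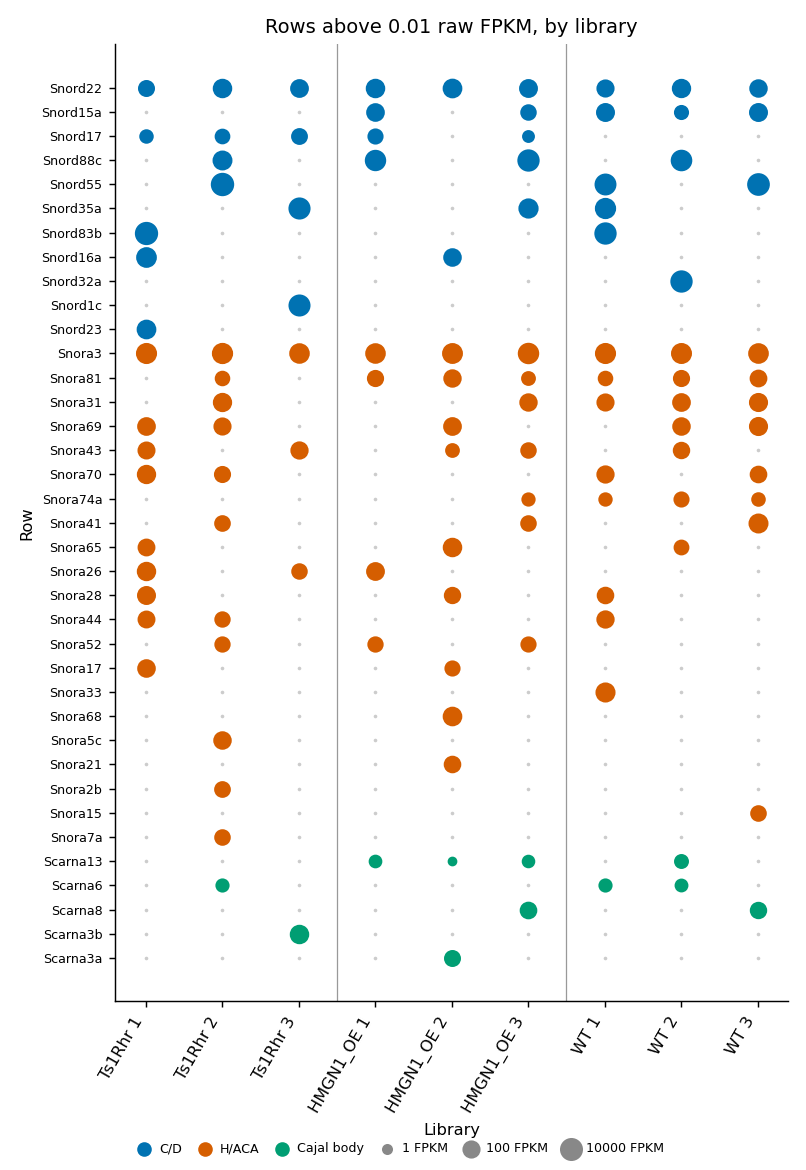
Each of the 37 rows above 0.01 raw FPKM in some library (vertical axis) is shown in each of the 9 libraries (horizontal axis); a coloured dot marks a value above 0.01, its area grows with the log10 of the raw FPKM, its colour gives the class, and a small grey dot marks 0 or 0.01. Snora3 and Snord22 have a dot in every column, and 12 rows have a dot in 1 column.

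The classes differed in how often and how high they were listed. Some value above 0.01 was present in 21 of 36 H/ACA rows (58.3%) and 5 of 9 Cajal body rows (55.6%), against 11 of 69 C/D rows (15.9%). Counting every library separately, 20.4% of H/ACA values, 13.6% of Cajal body values and 5.80% of C/D values exceeded 0.01. In level, by contrast, the C/D rows came first. The median of the values above 0.01 was 313 FPKM in C/D rows, 93.3 FPKM in H/ACA rows and 5.65 FPKM in Cajal body rows. The highest values were 14830.2 FPKM for C/D, 1952 FPKM for H/ACA and 306 FPKM for Cajal body rows. The 37 rows above 0.01 had a median GENCODE length of 131 bases, and the other 75 rows with a length there, all at 0 except Snora24, a median of 81 bases. Within the C/D class the medians were 94 bases for the 11 rows above 0.01 and 75 bases for the other 56. Within the H/ACA class both medians were 132 bases, and within the Cajal body class the order was the opposite, with 140 bases for the 5 rows above 0.01 and 202 bases for the other 4. The part of length in the class difference was not tested.

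Values of 1 row in different libraries stood in ratios of whole numbers. Low values of other rows first gave what 1 fragment is worth in each library: where a library holds the same small number of fragments of a row as another does, the ratio of the FPKM values repeats from row to row. That ratio, relative to Ts1Rhr replicate 2, was 0.813, 1 and 0.853 in the Ts1Rhr libraries, 1.01, 0.833 and 0.932 in the HMGN1_OE libraries, and 1.51, 0.700 and 1.134 in the WT libraries. It rested on 50 to 120 of 1635 to 2262 shared low rows per library, in bins that otherwise held a median of 1 row. A fragment was thus worth most in WT replicate 1. After division by it, the values of 24 of the 25 members with 2 or more values above 0.01 were whole multiples of 1 step per row, to within 0.002%. Snora26 was the exception with multiples of up to 50 allowed for its smallest value.

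Counted in these steps, most values were small. Of the 98 values in the 24 rows, 15 equalled 1 step, 38 were 1 to 3 steps and 64 were at most 10 steps, with a median of 5.5. The largest was 97 steps, for Snora3. A step is the smallest count that the values allow, and a common whole factor in all values of a row would go unseen. Medians by class were 7 steps for C/D, 4 for H/ACA and 6 for Cajal body rows, so the 3 classes were closer in steps than in FPKM.

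The worth of a step, in contrast, ran over a wide range. In Ts1Rhr replicate 2 it was 0.689 FPKM for Scarna13, a Cajal body RNA of 275 bases within Snhg10, and 3199 FPKM for Snord83b, a C/D RNA of 94 bases. The step of Snord83b was 4643 times that of Scarna13, whose sequence is 2.93 times as long. It rested on 2 values, and rows of like length had smaller steps, 218 FPKM for Snord35a (90 bases) and 171 FPKM for Snord16a (99 bases). A common factor in the values of Snord83b would make its step larger than the worth of 1 fragment. Over the 24 rows, step size and length had a Spearman rho of -0.81, given as a description; all points come from the same libraries. The plot of step size against length shows the short C/D rows at the top.

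**Figure D2:**
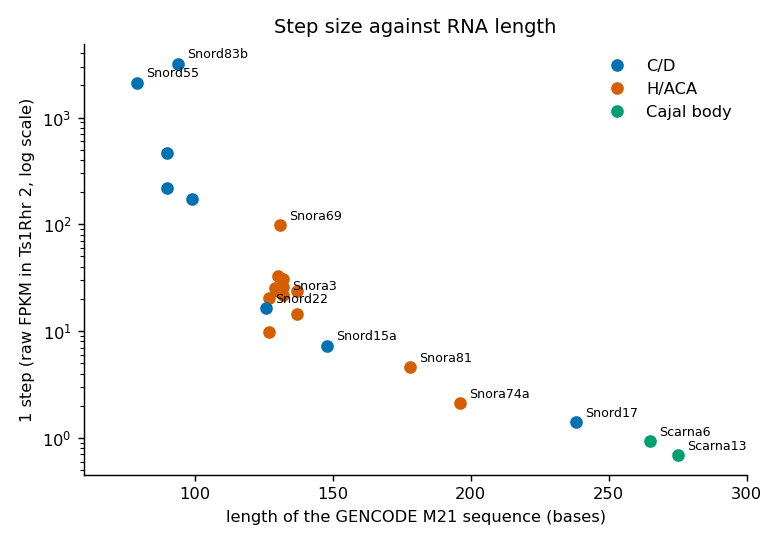
The worth of 1 step in raw FPKM in Ts1Rhr replicate 2 (vertical axis, log scale) is plotted against the length of the GENCODE sequence in bases (horizontal axis), 1 point per row for 24 rows, coloured by class. Steps range from 0.689 FPKM for Scarna13 to 3199 FPKM for Snord83b, and short rows have the larger steps.

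The highest values of the set were a few steps each, on the smallest counts that their 2 or 3 values allow. With a common factor unseen, few steps need not be few fragments. Snord55, a C/D RNA, stood at 0, 14830.2 and 0 FPKM in the Ts1Rhr libraries, at 0 in all 3 HMGN1_OE libraries, and at 3197, 0 and 7208 FPKM in the WT libraries. Those values were 7 steps in Ts1Rhr replicate 2, 1 step in WT replicate 1 and 3 steps in WT replicate 3. Snord83b stood at 13007 FPKM in Ts1Rhr replicate 1, 5 steps, and at 4827 FPKM in WT replicate 1, 1 step, with 0 in every other library. These 2 rows both had rank 2 by raw FPKM in the library in which they were highest, and no group held either of them in all 3 libraries.

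Other high C/D rows were also listed in some libraries of a group and at 0 in others. Snord88c (within 2410002F23Rik) stood at 0, 463 and 0 FPKM in the Ts1Rhr libraries, 1862, 0 and 4745 FPKM in the HMGN1_OE libraries, and 0, 2268 and 0 FPKM in the WT libraries. Its steps were 1 in Ts1Rhr replicate 2, 4 and 11 in HMGN1_OE replicates 1 and 3, and 7 in WT replicate 2. Snord35a (within Rpl13a) stood at 3896 FPKM in Ts1Rhr replicate 3, 608 FPKM in HMGN1_OE replicate 3 and 1641 FPKM in WT replicate 1, or 21, 3 and 5 steps, and at 0 elsewhere. Every group had a library with the row and a library without it. Snord32a (also within Rpl13a) stood at 4845 FPKM in WT replicate 2 alone, and Snord1c (within 1810032O08Rik) at 3614 FPKM in Ts1Rhr replicate 3 alone. Snord16a (within Rpl4) stood at 972 FPKM in Ts1Rhr replicate 1 and 142 FPKM in HMGN1_OE replicate 2, or 7 steps and 1 step.

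Among the H/ACA rows, Snora31 (within Tpt1), Snora69 (within Rpl39) and Snora43 were above 0.01 in 5 libraries each. Snora31 stood at 0, 262 and 0 raw FPKM in the Ts1Rhr libraries, 0, 0 and 122 in the HMGN1_OE libraries, and 98.96, 161 and 223 in the WT libraries. All WT libraries thus held it, and 1 Ts1Rhr library lay above them; its limma adjusted p in Ts1Rhr against WT was 0.172 in the normalised table. Snora69 was at 1 or 2 steps in each of its 5 libraries, 2 of them Ts1Rhr, 1 HMGN1_OE and 2 WT. Of the Cajal body rows, Scarna6 (within Atg16l1) stood at 5.62 raw FPKM in Ts1Rhr replicate 2 and at 5.65 and 4.58 in WT replicates 1 and 2. Scarna8 (within Haus6) stood at 66.6 raw FPKM in HMGN1_OE replicate 3 and at 54.04 in WT replicate 3, or 3 and 2 steps. The other Cajal body rows with a value were Scarna13 and, in 1 library each, Scarna3a and Scarna3b.

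In each library 1 row held 39.2% to 82.7% of the members' summed raw FPKM. The members made up 3.64%, 3.91% and 1.92% of the summed raw FPKM in the Ts1Rhr libraries, 0.694%, 0.559% and 1.74% in the HMGN1_OE libraries, and 2.07%, 1.83% and 1.94% in the WT libraries. Ts1Rhr replicates 1 and 2 were highest, HMGN1_OE replicates 1 and 2 lowest, and the lowest Ts1Rhr value lay within the WT range. Snord83b alone held 75.9% of the members' sum in Ts1Rhr replicate 1, and Snord55 82.7% in Ts1Rhr replicate 2. The leading row was Snord35a in Ts1Rhr replicate 3, Snord88c, Snora3 and Snord88c in the HMGN1_OE libraries, and Snord83b, Snord32a and Snord55 in the WT libraries.

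**Figure D3:**
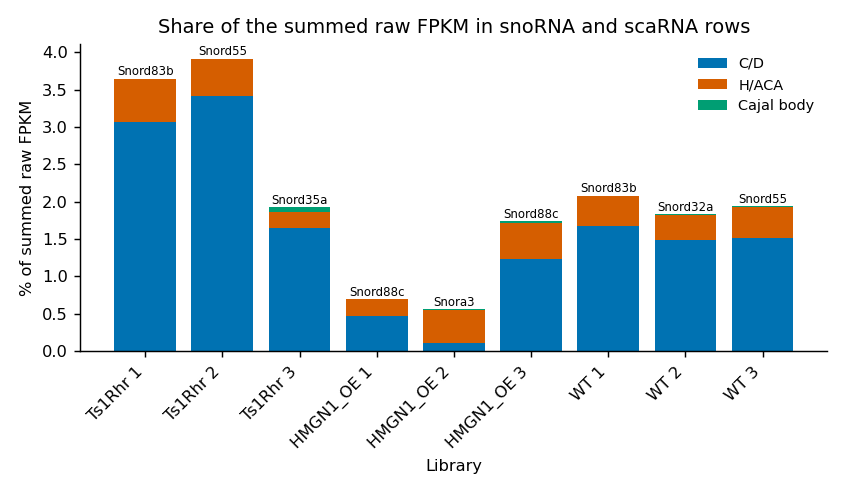
Bars give the percent of each library's summed raw FPKM held by the 114 rows (vertical axis), stacked by class, for the 9 libraries (horizontal axis), with the highest row named above each bar. The bars run from 0.559% in HMGN1_OE replicate 2 to 3.91% in Ts1Rhr replicate 2, and 6 different rows lead.

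The spread between libraries of a group was far wider for these rows than for the rows tested with limma, most of which held no 0. Over the 10878 rows averaging 1 raw FPKM or more, the standard deviation within groups of log2(raw FPKM + 0.1) had a median of 0.25, and its 99th percentile was 1.76. All 37 members above 0.01 somewhere passed that filter, often through 1 library, and their median was 4.13. Their values ran from 0.48 to 8.07, and 35 of the 37 lay above the 99th percentile of all tested rows. The exceptions were Snora3 at 0.48 and Snord22 at 1.03, which stood at the 88.7th and 97.8th percentiles. These 2 alone among the members held no value of 0 or 0.01, whereas 10710 of the 10878 tested rows held none. A 0 entered as log2(0.1) widens the spread by itself, and other rows with a 0 were not compared separately. In the spike-in normalised table, where values at 0 in the raw table lay near 0.1, the medians were 0.35 for all tested rows and 4.14 for the members.

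**Figure D4:**
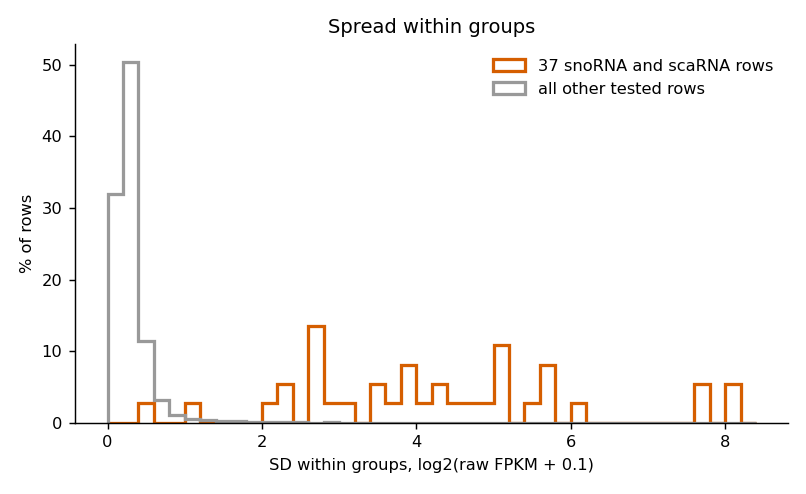
The percent of rows (vertical axis) is given by the standard deviation within groups of log2(raw FPKM + 0.1) (horizontal axis), for the 37 tested members and for all other tested rows. The members have a median of 4.13, all tested rows a median of 0.25.

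Snora3, a box H/ACA guide, held 38 to 97 steps per library, more in each library than any other row whose steps were found. It stood at 1405, 1620.2 and 848 raw FPKM in the Ts1Rhr libraries, 869, 1151 and 1952 in the HMGN1_OE libraries, and 1402, 1285 and 931 in the WT libraries, and the 3 groups overlapped. In the normalised table it averaged 1142 ± 358 FPKM in Ts1Rhr, 1543.5 ± 452 in HMGN1_OE and 1468 ± 713 in WT libraries (SD, n = 3 each). With limma, fitted over all tested rows, Ts1Rhr differed from WT by -0.27 ± 0.47 (log2, SE; adjusted p = 0.773) and HMGN1_OE from WT by 0.16 ± 0.47 (adjusted p = 0.908). On the raw scale Ts1Rhr minus WT was 0.068 ± 0.32 (adjusted p = 0.906 in limma), so the sign of that difference turned with the table.

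Snord22, a C/D RNA from the non-coding host Snhg1, was the other row present throughout. It stood at 40.1, 312 and 168 raw FPKM in the Ts1Rhr libraries, 314, 383 and 184 in the HMGN1_OE libraries, and 99.2, 276 and 130.5 in the WT libraries. These were 3, 19 and 12 steps in Ts1Rhr, 19, 28 and 12 in HMGN1_OE, and 4, 24 and 7 in WT libraries. The groups overlapped, and Ts1Rhr replicate 1 was the lowest library. In the normalised table it averaged 161 ± 127 FPKM in Ts1Rhr, 345 ± 177 in HMGN1_OE and 172 ± 106 in WT libraries (SD, n = 3 each). By limma the log2 difference from WT was -0.34 ± 0.57 (SE) in Ts1Rhr (adjusted p = 0.770) and 1.03 ± 0.57 in HMGN1_OE (adjusted p = 0.489), neither past the threshold of 0.05.

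The comparison of Ts1Rhr with WT asked whether an added copy of the interval moved these rows. None of the 113 members found in the annotation lies in the interval. Of the normalised values, those of 3 of the 37 tested members passed the threshold with limma, Snord17 higher and Snord15a and Snora74a lower in Ts1Rhr, against 0.57% of all tested rows (0.423% higher, 0.147% lower). Of the raw values, those of 4 passed, the same 3 and Snora81 lower, against 8.85% of all tested rows (4.29% higher, 4.56% lower). With no filter on low values 0 members passed with limma in either table, and 4 of 114 (3.51%) stood at an unadjusted p under 0.05 in each, against 10.7% of all gene rows in the normalised and 15.99% in the raw table. With the filter 6 of 37 (16.2%) did in the normalised and 5 (13.5%) in the raw table, against 19.5% and 30.9% of all tested rows. In bulk libraries, fewer cells of a type and less RNA per cell cannot be told apart.

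Snord17, a long C/D RNA from an intron of the sorting nexin gene Snx5, stood at 6.81, 15.4 and 35.7 raw FPKM in the Ts1Rhr libraries, 21.1, 0 and 2.60 in the HMGN1_OE libraries, and 0 in all 3 WT libraries. These were 6, 11 and 30 steps in Ts1Rhr and 15, 0 and 2 steps in HMGN1_OE libraries, and 1 step would have been worth 2.11, 0.977 and 1.58 FPKM in the WT libraries. All Ts1Rhr libraries held the row and no WT library did, a pattern seen in 0.103% of all gene rows. Rows at 0 in all 9 libraries (30.9%) or above 0.01 in all 9 (50.7%) could not show it. The other shares of this kind given below have the same limit. The adjusted p was 0.00884 in the normalised and 0.0320 in the raw table by limma. The fitted log2 differences of 7.48 ± 1.16 and 7.29 ± 1.45 (SE) depend on the 0.1 that stands in for 0 and bound nothing: with 1 in its place they were 4.12 and 4.07. With no filter on low values the adjusted p by limma was 0.170 and 0.146, with robust empirical Bayes 0.105 and 0.0455, and with no intensity trend 0.0452 and 0.0580, normalised value first. Without Ts1Rhr replicate 2, Ts1Rhr replicate 3 or WT replicate 3 the normalised adjusted p by limma was 0.107, 0.0598 and 0.0999, and the raw call was lost without any 1 of these or without WT replicate 1 (0.141 by limma).

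Snord15a, a C/D RNA from an intron of the ribosomal protein gene Rps3, went the other way. It was listed at 0 in all 3 Ts1Rhr libraries, at 154, 0 and 27.2 raw FPKM in the HMGN1_OE libraries, and at 198, 10.2 and 199 raw FPKM in the WT libraries. The WT values were 18, 2 and 24 steps and those of HMGN1_OE 21, 0 and 4. Every WT library held the row and no Ts1Rhr library did, as did 0.352% of all gene rows. By limma the adjusted p was 0.0208 in the normalised and 0.0325 in the raw table (log2 differences -9.20 ± 1.68 and -9.53 ± 2.10, SE). With Ts1Rhr at 0 these sizes also depend on the 0.1 and bound nothing: with 1 in its place they were -6.05 and -6.26. In both tables the call was lost with no filter on low values (adjusted p by limma 0.236 normalised, 0.170 raw), with robust empirical Bayes (0.154 and 0.0807) and with no intensity trend (0.0827 and 0.0620). In the normalised table the adjusted p by limma was 0.131 without Ts1Rhr replicate 2, 0.0736 without Ts1Rhr replicate 3, 0.0717 without WT replicate 1 and 0.151 without WT replicate 3, and the raw call was lost without any of these libraries or Ts1Rhr replicate 1. Snord15b, its companion within Rps3, was at 0 in all 9 libraries.

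Snora74a, an H/ACA RNA on chromosome 18 whose human counterpart comes from SNHG4, was listed at 0 in all 3 Ts1Rhr libraries, at 0, 0 and 5.89 raw FPKM in the HMGN1_OE libraries, and at 6.36, 20.6 and 7.17 in the WT libraries. The WT values were only 2, 14 and 3 steps. The row passed the filter, a mean of 1 raw FPKM over the 9 libraries, only through WT, which gave 3.797 of that mean against 0 from Ts1Rhr and 0.655 from HMGN1_OE, so a difference was built into its being tested. By limma the adjusted p was 0.0330 in the normalised and 0.0322 in the raw table with the filter, but 0.213 and 0.139 without it. The log2 differences of -6.28 ± 1.24 and -6.63 ± 1.33 (SE) became -3.19 and -3.45 with 1 in place of 0.1 and bound nothing. The call was also lost with no intensity trend (adjusted p by limma 0.0617 normalised, 0.0580 raw) and, in the normalised table, with robust empirical Bayes (0.0749). The normalised call was lost without Ts1Rhr replicate 2 or 3 or any single WT library (adjusted p by limma 0.0764 to 0.151), and the raw call without any single library of either group.

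Snora81, an H/ACA RNA within the translation factor gene Eif4a2 on chromosome 16, outside the interval, stood at 0, 13.7 and 0 raw FPKM in the Ts1Rhr libraries, 46.1, 122 and 8.54 in the HMGN1_OE libraries, and 13.8, 44.9 and 72.8 in the WT libraries. On the raw scale Ts1Rhr replicate 2, at 3 steps, lay just under the lowest WT library, at 2 steps of greater worth. On the normalised scale it lay above that library, at 13.2 against 12.5 FPKM. Its adjusted p by limma was 0.0460 in the raw and 0.0565 in the normalised table, and in 8 of 9 fits that left out 1 library the raw call was lost, the fit without HMGN1_OE replicate 3 being the exception.

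**Figure D5:**
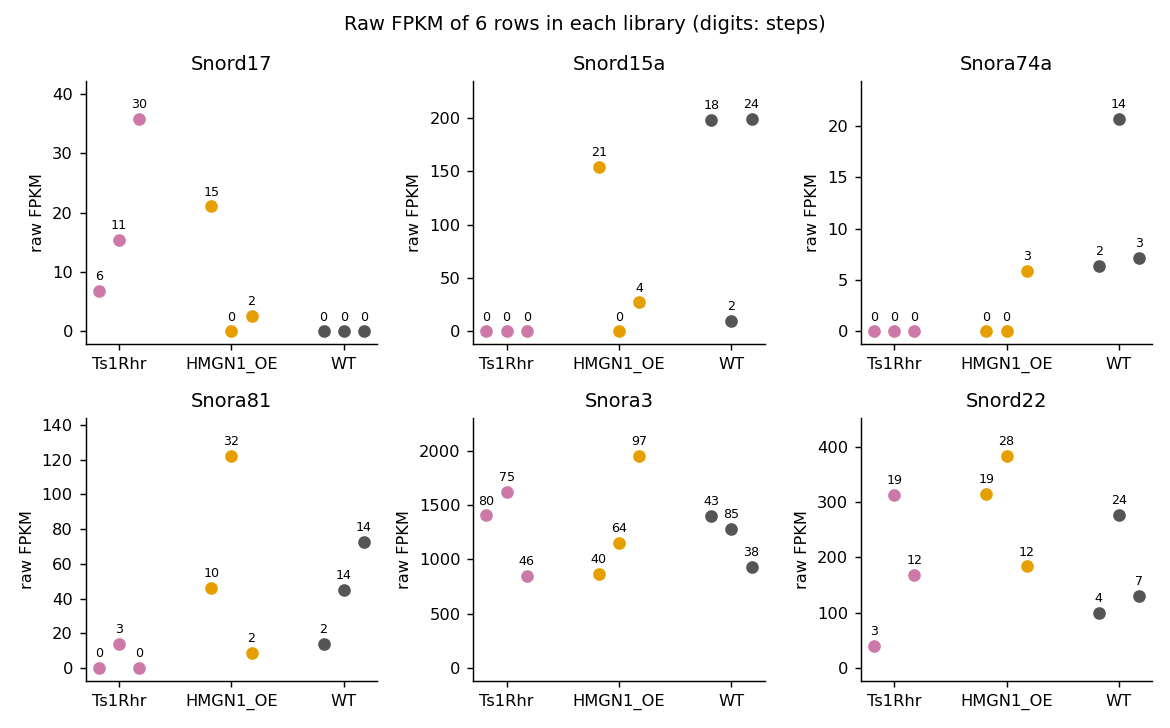
Raw FPKM (vertical axes, linear) of 6 rows is shown in each library, grouped as Ts1Rhr, HMGN1_OE and WT (horizontal axes), with the number of steps above each point. Snord17 is at 0 in the 3 WT libraries, Snord15a and Snora74a are at 0 in the 3 Ts1Rhr libraries, and Snora3 and Snord22 are above 0 in all 9.

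The same rows did not pass in the other comparisons. HMGN1_OE against WT called 0 members in either table by limma, against 0.0919% of all tested rows in the normalised (0.00919% higher, 0.0827% lower) and 0.0368% in the raw table. At an unadjusted p under 0.05 stood 6 members (16.2% of 37) in each table, against 11.7% of all tested rows in the normalised and 14.6% in the raw table. No member was above 0.01 in all 3 libraries of 1 of these groups and at 0 or 0.01 in all 3 of the other, against 0.0601% of all gene rows held by HMGN1_OE libraries alone and 0.412% by WT libraries alone. The limma adjusted p of Snord17 was 0.236, of Snord15a 0.480 and of Snora74a 0.278 in the normalised table. Without HMGN1_OE replicate 2, which held no Snord17, 1 member (Snord17) passed in each table, and without HMGN1_OE replicate 3 Snora74a passed in both and Snora31 in the normalised one. Ts1Rhr against HMGN1_OE called 0 members and 0% of tested rows in both tables by limma, with 7 members (18.9%) in the normalised and 4 (10.8%) in the raw table at an unadjusted p under 0.05, against 4.37% and 8.85% of all tested rows. With 1 library left out, Snora81 passed in the normalised table without Ts1Rhr replicate 2 or HMGN1_OE replicate 3, and Snord15a without HMGN1_OE replicate 2. In that comparison Scarna13 stood at 0 in all Ts1Rhr libraries and at 4.16, 0.574 and 3.85 raw FPKM in the HMGN1_OE libraries, or 6, 1 and 6 steps, a pattern held by 0.112% of all gene rows. In the WT libraries Scarna13 stood at 0, 9.16 and 0 FPKM. The comparisons with WT share the WT libraries.

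Of the 113 matched members 108 lie within another gene on the same strand, and fragments of host pre-mRNA over a member's bases cannot be told apart from the mature RNA. Snx5 stood at 467, 568 and 497 raw FPKM in the Ts1Rhr libraries, 498, 491 and 433 in the HMGN1_OE libraries, and 511, 437 and 456 in the WT libraries, while Snord17 was at 0 in WT. Rps3 stood at 112, 56.5 and 91.7 raw FPKM in Ts1Rhr, 81.5, 77.2 and 95.04 in HMGN1_OE, and 72.04, 91.3 and 62.8 in WT libraries, while Snord15a was at 0 in Ts1Rhr. Eif4a2, the host of Snora81, ranged over 197 to 279 raw FPKM in Ts1Rhr, 219.7 to 269.5 in HMGN1_OE and 196 to 208 in WT libraries. These 3 hosts overlapped between Ts1Rhr and WT, and the annotated host of Snora74a was not analysed here. The Ts1Rhr minus WT log2 differences in the raw table were 0.12 ± 0.15 for Snx5 and 0.16 ± 0.23 for Rps3 (SE; adjusted p = 0.602 and 0.664 by limma).

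Rpl27a, which holds Snora3, ranged over 103 to 222 raw FPKM in Ts1Rhr, 147 to 189 in HMGN1_OE and 138 to 244 in WT libraries. Rpl3, which holds Snord83b, ranged over 790 to 1133 raw FPKM in Ts1Rhr, 622 to 949 in HMGN1_OE and 559 to 709 in WT libraries. Rpl3 was thus present in all 9 libraries, of which Snord83b was at 0 in 7. Snhg10, the non-coding host of Scarna13, stood at 0.507, 2.81 and 0 raw FPKM in the Ts1Rhr libraries, 2.19, 3.24 and 0 in the HMGN1_OE libraries, and 2.12, 1.20 and 2.65 in the WT libraries. Scarna13 at 6 steps in HMGN1_OE replicate 3 thus came without a value for its host.

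Members that share a host seldom appeared together, but few of them appeared at all, and members of different hosts were not compared. In the annotation 20 hosts hold 2 or more members, 47 in all, of which 11 were above 0.01 in some library. In 10 of those hosts no member was, in 9 hosts 1 member was, and Rpl13a alone had 2. Those 2, Snord32a and Snord35a, were never in the same library, and Snord33 and Snord34 of the same gene were at 0 throughout. Snhg12 holds Snora16a, Snora44, Snora61 and Snord99, of which Snora44 alone appeared, at 4, 1 and 3 steps in Ts1Rhr replicates 1 and 2 and WT replicate 1.

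A wider list of host genes joined the hosts of members with Gas5 and every numbered Snhg gene, some of which hold no member. Of its 75 genes 72 were tested, and it was put together with earlier results of these data known. On the normalised scale 0 passed with limma in any of the 3 comparisons, with 12 (16.7%) at an unadjusted p under 0.05 both in Ts1Rhr and in HMGN1_OE against WT, where 19.5% and 11.7% of all tested rows were. The median log2 difference was 0.14 in Ts1Rhr against 0.12 over all tested rows, and 0.32 in HMGN1_OE against 0.21. In HMGN1_OE 67 of the 72 (93.1%) had a positive difference, beside 72.7% of all tested rows, and in Ts1Rhr 44 (61.1%), beside 59.9%. On the raw scale 7 of the 72 were called higher and 0 lower in Ts1Rhr than in WT libraries, beside 4.29% and 4.56% of all tested rows. The median there was 0.21 against 0.012. Yet 19 (26.4%) stood at an unadjusted p under 0.05 by limma, a share under the 30.9% of all tested rows. Among the 7 were Gas5, Snhg1 and Snhg12, non-coding genes known chiefly as snoRNA hosts, with Ncl (nucleolin), Nop58 (a core protein of C/D particles) and Ckap5 (a microtubule protein gene). Ncl averaged 101 ± 1.67 raw FPKM in Ts1Rhr and 59.2 ± 4.80 in WT libraries (SD, n = 3 each; log2 difference 0.77 ± 0.18 SE, adjusted p = 0.0365 by limma). Snhg1, the host of Snord22, averaged 65.5 ± 13.3 raw FPKM in Ts1Rhr and 39.8 ± 7.77 in WT libraries (SD, n = 3 each; adjusted p = 0.0439 by limma), while Snord22 itself did not pass. Without any single Ts1Rhr library, or without WT replicate 1 or 3, 0 of the host genes passed.

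A list of 30 protein genes was also tested, all of them with a mean of 1 raw FPKM or more. It held core and assembly proteins of these particles, Cajal body proteins, Rrp9, the telomerase gene Tert and nuclear RNA turnover genes. On the normalised scale 0 passed with limma in Ts1Rhr against WT and 0 in HMGN1_OE against WT. At an unadjusted p under 0.05 stood 8 (26.7%) in Ts1Rhr and 12 (40%) in HMGN1_OE against WT, beside 19.5% and 11.7% of all tested rows. The median log2 difference was 0.35 in Ts1Rhr against 0.12 over all tested rows, and 0.54 in HMGN1_OE against 0.21. Of the 30, 27 had a positive difference in Ts1Rhr and 28 in HMGN1_OE, beside 59.9% and 72.7% of all tested rows, and on the raw scale 25 and 23 had, beside 51.0% and 51.6%. Raw values put 8 (26.7%) at an unadjusted p under 0.05 by limma in Ts1Rhr, a share under the 30.9% of all tested rows. In HMGN1_OE they put 7 (23.3%) there, beside 14.6%. On the raw scale 1 of the 30 (3.33%) passed in Ts1Rhr, a share under the 4.29% of all tested rows called higher. That was Nop58, at a mean of 128 FPKM in Ts1Rhr and 74.6 in WT libraries (n = 3 each; log2 difference 0.78 ± 0.20 SE; adjusted p = 0.0407 by limma).

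Core proteins of each particle gave values as follows. Fbl, the methyltransferase of C/D particles, averaged 75.0 ± 29.8 normalised FPKM in Ts1Rhr, 98.4 ± 5.91 in HMGN1_OE and 69.6 ± 12.9 in WT libraries (SD, n = 3 each). Dkc1, the pseudouridine synthase of H/ACA particles, averaged 37.9 ± 7.42 in Ts1Rhr, 39.3 ± 9.79 in HMGN1_OE and 23.3 ± 5.63 in WT libraries (SD, n = 3 each), with adjusted p-values by limma of 0.172 and 0.319 against WT. Coil, the scaffold of Cajal bodies, averaged 16.9 ± 3.49 in Ts1Rhr, 16.1 ± 1.00 in HMGN1_OE and 10.4 ± 1.14 in WT libraries (SD, n = 3 each), and Wrap53, which carries H/ACA Cajal body RNAs there, 9.96 ± 0.398 in Ts1Rhr, 9.19 ± 1.04 in HMGN1_OE and 6.03 ± 1.36 in WT libraries (SD, n = 3 each). Neither passed the threshold (adjusted p in Ts1Rhr 0.141 and 0.131 by limma).

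The libraries themselves differed in ways that stand beside these results. All 12 pro-B markers reached 1 FPKM in all 9 libraries, and their summed raw FPKM was 1221 to 1628 in Ts1Rhr, 1249 to 1633 in HMGN1_OE and 848 to 1212 in WT libraries, with both other groups wholly above WT. The sum of 8 myeloid markers was 15242 to 17470.3 in Ts1Rhr, 13891 to 29024 in HMGN1_OE and 23884 to 36032 in WT libraries. In every library it was thus far above the pro-B sum, and 6 of the 8 myeloid markers reached 1 FPKM in all 9 libraries. The sum of 4 stromal markers was 2.35 to 5.62, 2.03 to 6.30 and 23.8 to 46.7 in the same groups. The sum of 4 erythroid markers was 90.7 to 118 in Ts1Rhr, 55.4 to 91.8 in HMGN1_OE and 35.9 to 55.3 in WT libraries, again above WT in both other groups, though by only a small margin for the lowest HMGN1_OE library. That sum came from Car2 alone, a carbonic anhydrase gene, and the globin genes Hbb-b1 and Hba-a1 were at 0 in all 9 libraries. The row of the 45S ribosomal precursor, Rn45s, stood at 956, 325 and 3095 raw FPKM in Ts1Rhr, 4495, 2323 and 1082 in HMGN1_OE, and 10509.6, 1184 and 3043 in WT libraries, with WT replicate 1 far above the rest. The part of cell mixture and of residual ribosomal RNA in the calls of Snord17, Snord15a and Snora74a was not tested.

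Most other short RNA rows examined were sparse too. Of 602 microRNA rows, 18 (2.99%) exceeded 0.01 raw FPKM in some library and 3 in all 9. Rnu11 and Rnu12, spliceosomal RNAs, were at 0 in all 9 libraries, and Terc, the telomerase RNA, was at 0.215 FPKM in Ts1Rhr replicate 1 and at 0 elsewhere. Rmrp, the RNA of RNase MRP, was at 0 in all 3 Ts1Rhr libraries, at 0, 0 and 1.88 FPKM in the HMGN1_OE libraries, and at 4.07, 2.36 and 0 in the WT libraries. Rpph1, the RNA of RNase P, was listed in more libraries, at 0.686, 0 and 8.99 FPKM in Ts1Rhr, 2.54, 0 and 0 in HMGN1_OE, and 1.27, 0.885 and 1.43 in WT libraries, and Vaultrc5, a vault RNA, was at 3.71 FPKM in WT replicate 3 alone.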

How the data were processed

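The authors deposited 2 tables of FPKM, 1 raw and 1 normalised further; HISAT, Cufflinks 2.0.0 and the mm9 build are those listed per the submitters' processing notes, with settings, gene annotation and strand not given in the sources used here. Rows of 92 spike-ins and 27 calendar dates were left out, and the 10878 rows averaging 1 raw FPKM or more were fitted in limma 3.58.1 (R 4.3.3, intensity trend, all 9 libraries, a mean per group, two-sided tests, Benjamini-Hochberg adjustment over all rows, threshold 0.05). Raw values entered as log2(FPKM + 0.1) and normalised values as log2, which understates changes of low rows. Since FPKM hold no counts, none of the tests was a count test, and absolute depth is unknown; steps were found by division by the worth of 1 fragment, from rows between 0.01 and 1 FPKM. The limma and step computations were tested on simulated data. The simulated noise for limma was normal, unlike member rows at 0 in some libraries and high in others. The step simulation left out rows of 2 values, such as Snord83b, and did not score a common factor. The labels call the samples of a group biological replicates without naming animals, so a p-value reflects only the spread of these samples. Members matched GENCODE M21 (GRCm38) by symbol, in 113 of 114 cases; the RefSeq table planned for host genes gave no strand, so GENCODE was used in its place, for hosts, lengths and sequences, and no mm9 coordinate was converted. Copies such as Snora43, which has 2 loci in the annotation, are uncertain because the handling of shared fragments is not given.

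Members and gene lists were chosen with earlier results of these data known. Rows named with all values were Snord17, Snord15a, Snora74a, every member called in any comparison, those above 0.01 in all 9 libraries, the 8 with the highest single value, and those listed at 0.01, with their hosts; other named rows were chosen after their values were seen. Alternatives changed the pseudocount, filter, trend, scaling, samples and block. Some values and 1 sequence are not reported here.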

Additional observations from a re-analysis of the deposited data

How the results depend on the processing

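In Ts1Rhr against WT the count of member rows called in the normalised table, 3, became 0 with no filter on low values, 0 with rows listed at 0 or 0.01 left out (which leaves 2 members, Snora3 and Snord22), 0 with robust empirical Bayes and 1 (Snord17) with no intensity trend, and ranged from 0 to 4 over fits that left out 1 library. In the raw table the count of 4 became 0, 0, 2 (Snora74a and Snord17, with robust empirical Bayes) and 0 under the same settings, with a range of 0 to 4. Left-out libraries gave 0 to 2 (normalised) and 0 to 1 (raw) calls in HMGN1_OE against WT, and 0 to 1 (normalised) in Ts1Rhr against HMGN1_OE, where 1 spike-in factor per library gave 1 raw call, Snora81. Same-numbered replicates correlated between -0.133 and 0.156 in their deviations, and differently numbered ones between -0.284 and 0.234. With 3 libraries a group this cannot settle whether equal numbers pair samples, and no label ties them. A replicate block gave 5 normalised calls in Ts1Rhr against WT (adding Snora26 and Snora81), 2 in Ts1Rhr against HMGN1_OE, and 0 raw host genes. Raw host genes, 7 in Ts1Rhr against WT, became 0 with no filter, no trend or 1 spike-in factor, 11 with a filter at 5 FPKM, and 0 to 9 with a library left out, and normalised host genes became 1 (Snhg12) when library medians were made equal. The difference in the mean number of rows above 0.01 ranged over -2 to 2 for Ts1Rhr minus WT, -2 to 0.5 for HMGN1_OE minus WT and -1 to 3 for Ts1Rhr minus HMGN1_OE with a library left out. The log2 difference of Snora3 turned sign with the table in Ts1Rhr against WT (0.068 raw, -0.27 normalised) and with a shared median in HMGN1_OE against WT (-0.045). With a library left out it ranged over -0.72 to 0.067 and -0.28 to 0.50 against WT in Ts1Rhr and HMGN1_OE (normalised), -0.12 to 0.35 and -0.25 to 0.34 (raw), and -0.27 to 0.32 in Ts1Rhr against HMGN1_OE (raw). That of Snord22 in Ts1Rhr against WT ranged over -0.98 to 0.45 (normalised) and -0.90 to 0.58 (raw). The causes were not tested. With multiples of up to 30 allowed, chosen after seeing the data, 23 rows were whole multiples, and with up to 100, 25. The row added at 100 was Snora26, at 989, 89 and 474 steps of 0.362 FPKM. A match is easier to reach with multiples that large, and those steps are not among the 98 values. With 38 of 98 values at 1 to 3 steps, little can be said of a row from 1 library, and the part of depth was not tested.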
